A study of Mus musculus with 3 samples.

Results

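The 38 genes described here form the fibroblast growth factor (FGF) signalling module of the mouse embryo: 18 secreted FGF ligands, 4 intracellular FGF homologous factors, 5 receptors, the co-receptor Klb, the adaptor Frs2, 7 feedback inhibitors and the target transcription factors Etv4 and Etv5. They were taken by symbol from a table of 30854 gene symbols, as all numbered Fgf, Fgfr, Spry and Spred symbols together with Fgfrl1, Dusp6, Etv4, Etv5, Frs2 and Klb. Spry1, a Sprouty inhibitor, was not analysed here. The measurements came from 3 Illumina mouse bead arrays, each hybridized with biotin-labelled cRNA from the embryonic region of wild-type Cd-1 embryos at the early headfold (EHF) stage, with no treatment named. The arrays form 1 group, and no control or mutant embryos were analysed here, so expression was set against the background of each array. The labels do not say whether the replicates were single embryos, litters or pools, and errors therefore measure only the spread between these arrays.

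FGF ligands bind receptor tyrosine kinases on the cell surface, together with heparan sulphate chains or a Klotho co-receptor. The activated receptor recruits Frs2, and the signal runs through Ras, Raf and MEK to the kinase ERK. ERK activity switches on Etv4 and Etv5 and also Dusp6, Sprouty and Spred genes, whose products dampen the same pathway. In the gastrulating mouse embryo the pathway is known for its part in the movement of cells away from the primitive streak and in the making of mesoderm.

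A gene was called above background on an array where its deposited detection p-value, which compares its signal with the negative-control beads, was below 0.01. Of the 38 members, 11 were called on all 3 arrays (28.9%), where the same rule called 20.6% of all symbols. The 11 were the ligands Fgf5, Fgf8, Fgf17 and Fgf15, the receptors Fgfr1 and Fgfrl1, the adaptor Frs2, the inhibitors Spred1 and Dusp6, and both target factors. A further 7 were called on some arrays, which made 18 with at least 1 call (47.4%, against 33% of all symbols). By array, 16 members were called on replicate 1, 15 on replicate 2 and 12 on replicate 3, against 29.2%, 26.6% and 23.3% of all symbols (42.1%, 39.5% and 31.6% of the members).

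The level of each member was also tested against the background with limma, after background correction and quantile normalization. The background level of an array is the lowest level at which a symbol with 1 probe is still called, and the highest of the 3 was used. By this test 14 members (36.8%) lay above background with an adjusted p-value below 0.05, against 23.8% of all symbols. They were the 11 called members and Fgf10, Fgf13 and Fgfr2. The SE of each level is limma's moderated one, which draws on the spread of all symbols. The same 14 had, on every array, a deposited signal above the background level of that array, a rule that 26.3% of all symbols met.

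The number of probes bears on the calls. From the bead numbers and the detection p-values, 24 members were inferred to have 1 probe and 14 to have several. Of the members with 1 probe 8 were called on all 3 arrays (33.3%, against 20.9% of such symbols), and of those with several 3 were called (21.4%, against 19.8%). Limma placed 33.3% of the members with 1 probe above background, against 18.9% of such symbols. With several probes the shares were 42.9% and 36.1%. For several probes the deposited detection p followed from the sum of the probes' own values, so a gene with 1 bright probe and others at background could miss the call at a high mean signal. Signals of different probes are not on a common scale of transcript number, so levels were read against background and between arrays, and no difference in level between genes is drawn from them. In whole tissue, fewer cells of a type and less RNA per cell cannot be told apart.

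**Figure D1:**
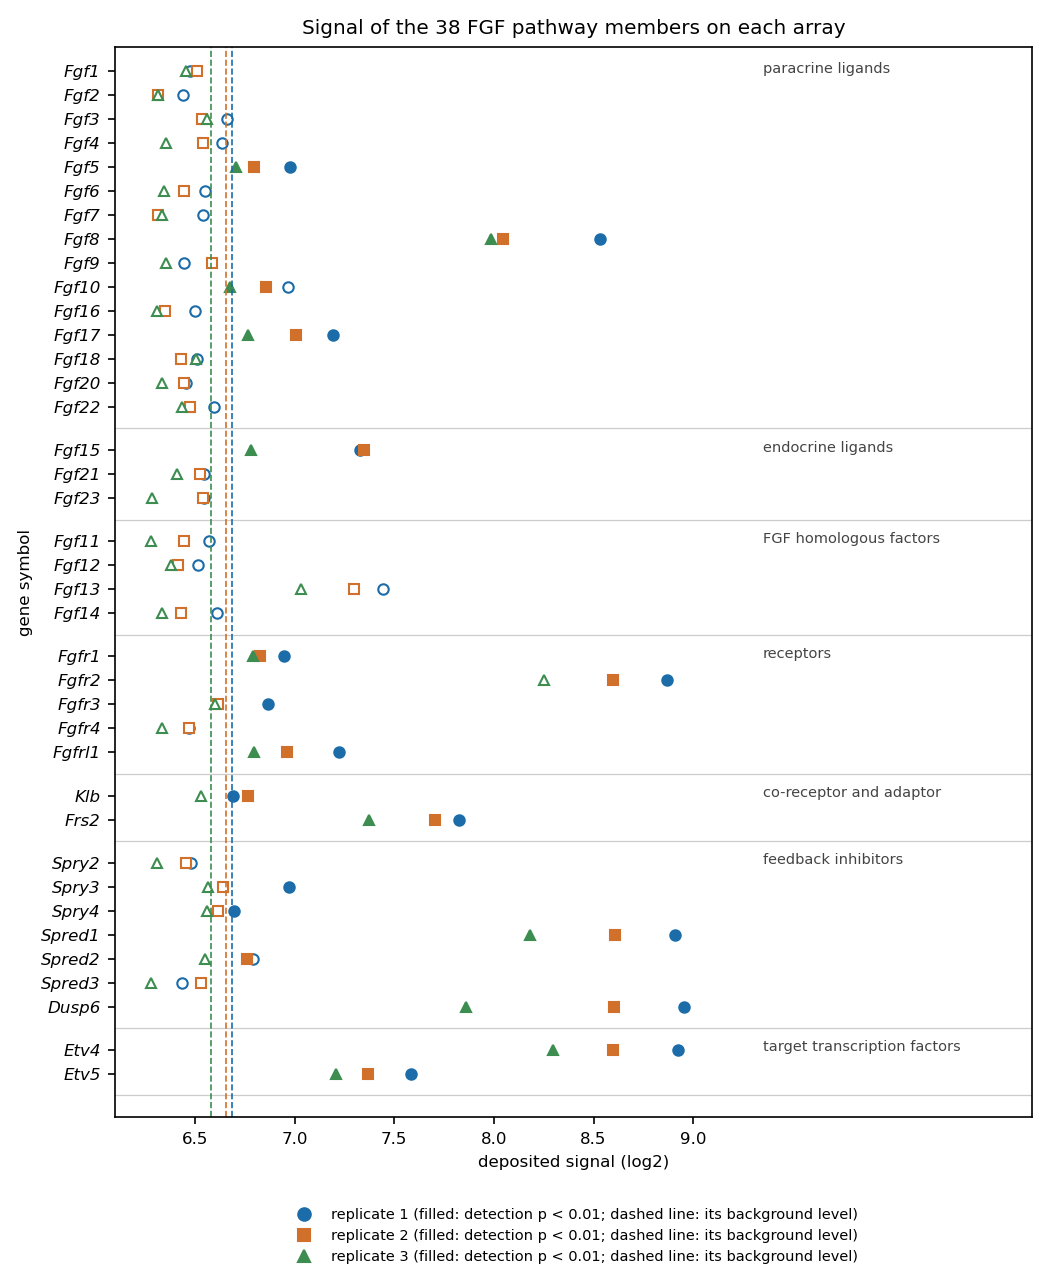
Deposited log2 signal (x axis) of each of the 38 members (y axis, grouped by role) on replicates 1, 2 and 3. Filled points have a detection p-value below 0.01 and the dashed lines are the background levels of the arrays, 6.69, 6.66 and 6.58. The called members lie to the right of the lines on every array. Open points also lie to the right for Fgf13 on all arrays, Fgfr2 and Fgfr3 on replicate 3 and Fgf10 and Spred2 on replicate 1.

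Of the 18 secreted ligands, 4 were called on all 3 arrays (22.2%, near the 20.6% of all symbols). Among the 15 paracrine ligands, which act on nearby cells through heparan sulphate, these were Fgf8, Fgf17 and Fgf5. Fgf8, the ligand that gastrulating embryos need for cells to leave the streak, had a deposited signal of 8.53 on replicate 1, 8.05 on replicate 2 and 7.99 on replicate 3 (log2). It exceeded every negative control on each array, with a detection p of 0. Its normalized level was 2.71 ± 0.10 above background (log2, SE, n = 3; limma adjusted p = 2.0e-05). The standard error over beads was 0.075 to 0.094 on the log2 scale, below the SD of 0.16 between the centred arrays.

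Fgf17, a close relative of Fgf8, was measured by 2 inferred probes. Its deposited log2 signals were 7.19, 7.01 and 6.76, all above background. The detection p-values of 0.00863, 0.00666 and 0.00101 were the nearest to the cut-off among the called ligands. They came from summed probe values of 0.131, 0.115 and 0.0449, where at most 0.141 still gave a call with 2 probes. The level of Fgf17 was 0.71 ± 0.052 above background (SE, limma adjusted p = 0.00027), and 1.08 without replicate 3, whose background level was the one used.

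Fgf5, known as a gene of the epiblast and later of the hair cycle, gave log2 signals of 6.98, 6.80 and 6.70. These were within 0.3 of the background levels on all arrays, with detection p-values of 0, 0.00107 and 0. Its level was 0.32 ± 0.072 above background (SE, limma adjusted p = 0.020), and this call was lost without replicate 1 (adjusted p = 0.10). Without replicate 3 the level was 0.57. Fgf10, the ligand of limb and lung buds, was called on replicates 2 and 3 only, with log2 signals of 6.97, 6.85 and 6.67. Replicate 1 held its highest signal and its highest detection p, 0.0854, since the 3 inferred probes summed to 0.800 there and to 0.0769 and 0.245 on the others. The mean level of Fgf10 was 0.33 ± 0.046 above background (SE, limma adjusted p = 0.0032), and 0.64 without replicate 3.

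Of the 3 endocrine ligands, which travel in the blood and use Klotho proteins, Fgf15 was called. Fgf15, the mouse counterpart of a human gut hormone that controls bile acid synthesis, had log2 signals of 7.33, 7.35 and 6.78, with a detection p of 0 on each array. Replicates 1 and 2 lay close together and replicate 3 was lower. Its level was 1.02 ± 0.14 above background (SE, limma adjusted p = 0.0030), and 1.55 without replicate 3.

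None of the 4 intracellular FGF homologous factors, which are not secreted and bind ion channels, was called by detection p. Fgf13 stood apart within this class, with log2 signals of 7.44, 7.30 and 7.03 that lay above background on each array. Its 3 inferred probes summed to detection values of 0.894, 1.12 and 1.03, above the 0.391 that still gave a call. By limma its mean level was 1.27 ± 0.046 above background (SE, adjusted p = 1.9e-05), so at least 1 of its probes lay above background.

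Fgf3 and Fgf22 had, with Fgf13, the lowest mean detection p among the 20 members called on no array. Fgf3, a ligand of ear and tail development, gave log2 signals of 6.66, 6.54 and 6.56, with detection p-values of 0.0235, 0.151 and 0.0150. Fgf22, known for its part in synapses, gave 6.59, 6.48 and 6.44. Neither passed limma, with normalized levels of -0.39 and -0.67 relative to background.

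The remaining 17 uncalled members were the ligands Fgf1, Fgf2, Fgf4, Fgf6, Fgf7, Fgf9, Fgf16, Fgf18, Fgf20, Fgf21 and Fgf23, the homologous factors Fgf11, Fgf12 and Fgf14, the receptor Fgfr4, and the inhibitors Spry2 and Spred3. Their log2 signals ran from 6.28 to 6.63 over all arrays and their detection p-values from 0.0142 to 0.976. Their normalized levels lay 0.64 to 0.87 below background. Fgf4, singled out after its values were seen because the streak of gastrulating embryos is known to make it, had log2 signals of 6.63, 6.54 and 6.35 and detection p-values of 0.0459, 0.149 and 0.650. Transcripts of these 17 genes were not detectable at the sensitivity of these arrays, which is not a measure of their absence.

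Of the 5 receptor genes, 2 were called on all arrays (40%, against 20.6% of all symbols). Limma placed 3 above background (60%, against 23.8%). Fgfr1, the receptor known to be needed in nascent mesoderm, gave log2 signals of 6.94, 6.82 and 6.79, with detection p-values of 5.7e-07, 4.6e-05 and 5.1e-06 over 2 inferred probes. Both probes were low in detection p while the mean signal stayed near background. Its level was 0.40 ± 0.11 above background (SE, limma adjusted p = 0.042), with the largest adjusted p among the 14 members called by limma. The call was lost with an offset of 50 (adjusted p = 0.086), without replicate 1 (0.088) and without replicate 2 (0.081).

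Fgfr2, a receptor of epithelia and extraembryonic lineages, showed the opposite combination. Its log2 signals of 8.87, 8.60 and 8.25 were far above background, while its detection p-values were 0.00492, 0.00841 and 0.0107. The last value missed the cut-off of 0.01, so Fgfr2 was called on 2 arrays. Its 4 inferred probes summed to 0.510, 0.620 and 0.672, against a limit of 0.656. By limma Fgfr2 lay 3.20 ± 0.046 above background (SE, adjusted p = 1.2e-06).

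Fgfrl1, a receptor-like protein without the kinase domain, had a detection p of 0 on each array at log2 signals of 7.22, 6.96 and 6.80. It lay 0.72 ± 0.065 above background (SE, limma adjusted p = 0.00061). Fgfr3, a receptor known from growing bone, was called on replicate 1 only, with signals of 6.87, 6.61 and 6.60 and a mean level of -0.08 relative to background. Fgfr4 was called on no array.

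The adaptor Frs2, which links activated receptors to the Ras pathway, had log2 signals of 7.82, 7.70 and 7.37 and a detection p of 0 on all arrays. It lay 1.92 ± 0.048 above background (SE, limma adjusted p = 5.1e-06). Klb, the co-receptor for endocrine FGFs, was called on replicates 1 and 2 at log2 signals of 6.69 and 6.76, and missed the call on replicate 3 at 6.53 with a detection p of 0.0299. Its mean normalized level was -0.18 relative to background.

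**Figure D2:**
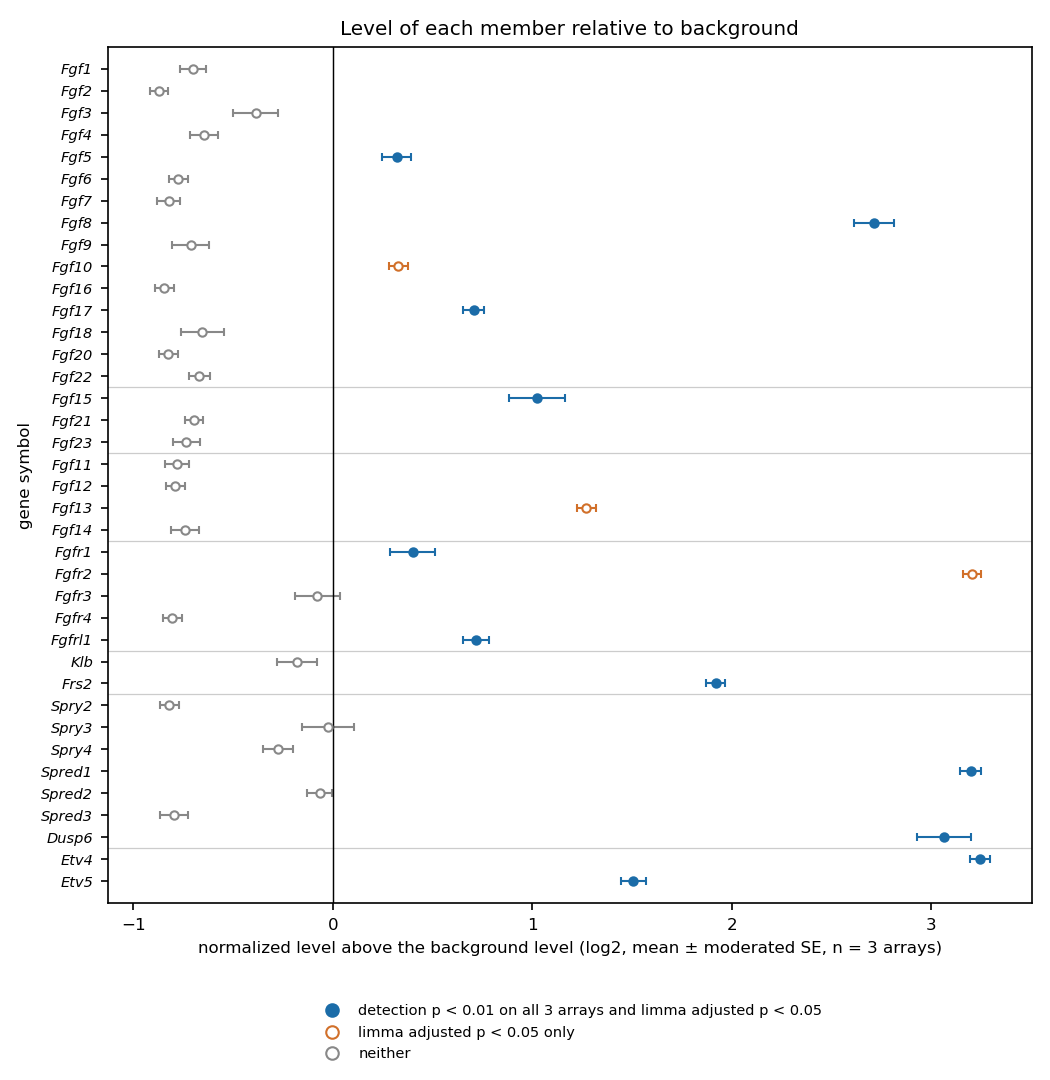
Normalized level of each member minus the background level (x axis, log2, mean ± limma's moderated SE, n = 3 arrays), in the order of roles used above (y axis). The 14 members above background by limma have means of 0.32 to 3.24, and the other 24 have means below 0 against the background level used.

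The 7 feedback inhibitors were divided, with 2 called on all arrays (28.6%, against 20.6% of all symbols), 3 on a single array and 2 on none. Dusp6, the phosphatase that removes the activating phosphates from ERK, gave log2 signals of 8.95, 8.60 and 7.86. All of its 3 inferred probes were low in detection p, which summed to at most 0.00321. It lay 3.06 ± 0.14 above background (SE, limma adjusted p = 3.9e-05). Spred1, an inhibitor of Ras-to-Raf signalling at the membrane, gave 8.91, 8.61 and 8.18 from a single inferred probe. It lay 3.20 ± 0.052 above background (SE, limma adjusted p = 1.6e-06).

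The Sprouty genes did not reach a call on all arrays. Spry3 was called on replicate 1 at a log2 signal of 6.97, and its signals of 6.64 and 6.56 on the others had detection p-values of 0.0150 and 0.0139. Spry4 was called on replicate 1 at 6.70, with 6.62 and 6.56 on the others and detection p-values of 0.0246 and 0.0150. Both were thus close to the threshold on the arrays that missed it, and their mean levels were -0.02 and -0.27 relative to background. Spry2, singled out after its values were seen, had log2 signals of 6.48, 6.46 and 6.31 with detection p-values of 0.688, 0.503 and 0.853, well inside the range of the negative controls. Spred2 was called on replicate 2 only, with signals of 6.79, 6.76 and 6.55 and a mean level of -0.06 relative to background.

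Both target transcription factors were called on all arrays with a detection p of 0. Etv4 gave log2 signals of 8.92, 8.60 and 8.29 and lay 3.24 ± 0.051 above background (SE, limma adjusted p = 1.5e-06). Etv5 gave 7.58, 7.37 and 7.21 and lay 1.51 ± 0.065 above background (SE, limma adjusted p = 3.5e-05). Etv4 and Etv5 are related ETS-family factors.

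The promoters of the members were described from RefSeq windows of the 250 bases before the gene start (build GRCm38.p6), which were found for 28 of the 38 members. Windows were not matched for Fgf1, Fgf8, Fgf16, Fgf17, Fgf20, Fgf15, Fgfr1, Spry3, Spry4 and Etv4. The dinucleotide CG, which reads the same on both strands, was counted and set against the number expected from the bases. Of the windows of all 27025 genes, 91.7% held at least 1. The median ratio of observed to expected CG was 0.88 in the 6 windows of called members and 0.56 in the 22 windows of members not called on all arrays. Over all symbols of the table the medians were 0.76 in the 3363 windows of called and 0.47 in the 9363 of uncalled symbols.

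The windows of 4 genes, chosen after their values were seen, show both ends of this range with every CG in capitals. Those of the called genes Dusp6 (chr10:99262981-99263230 on the plus strand) and Etv5 (chr16:22439571-22439820 on the minus strand) are followed by Spry2 (chr14:105896820-105897069 on the minus strand), rich in CG without a call, and Fgfr2 (chr7:130266809-130267058 on the minus strand), poor in CG at a high signal.
Dusp6: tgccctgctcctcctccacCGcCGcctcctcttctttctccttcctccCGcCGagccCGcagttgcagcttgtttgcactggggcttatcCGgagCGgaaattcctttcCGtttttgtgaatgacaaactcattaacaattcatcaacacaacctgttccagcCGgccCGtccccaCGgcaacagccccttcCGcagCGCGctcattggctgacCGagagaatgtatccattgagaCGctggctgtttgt
Etv5: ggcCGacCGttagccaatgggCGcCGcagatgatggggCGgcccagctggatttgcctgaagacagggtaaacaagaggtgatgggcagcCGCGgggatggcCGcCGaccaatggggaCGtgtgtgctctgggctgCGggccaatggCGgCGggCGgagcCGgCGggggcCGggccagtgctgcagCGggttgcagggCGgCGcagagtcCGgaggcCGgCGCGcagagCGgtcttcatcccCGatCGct
Spry2: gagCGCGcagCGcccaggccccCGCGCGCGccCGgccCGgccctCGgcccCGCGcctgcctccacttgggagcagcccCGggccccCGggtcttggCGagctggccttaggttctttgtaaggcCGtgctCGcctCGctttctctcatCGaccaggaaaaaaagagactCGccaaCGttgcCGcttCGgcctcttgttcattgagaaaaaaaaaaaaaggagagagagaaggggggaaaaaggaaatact
Fgfr2: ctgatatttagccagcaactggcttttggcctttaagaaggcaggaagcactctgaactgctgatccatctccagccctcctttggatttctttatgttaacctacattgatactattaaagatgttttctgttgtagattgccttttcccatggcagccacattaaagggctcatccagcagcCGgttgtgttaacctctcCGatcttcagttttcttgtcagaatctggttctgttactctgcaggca
The windows hold 16, 27, 23 and 2 CG, with ratios of 0.86, 0.90, 0.95 and 0.17. The called members ran from 0.60 for Frs2 to 1.00 for Spred1. The uncalled members ran from 0.15 for Fgf13 to 1.02 for Fgf18 and covered the whole range of the called members. Without Fgf10, Fgf13 and Fgfr2, which limma placed above background, the other 19 had a median of 0.61 and a lowest ratio of 0.30. Etv5 and Fgfr3 have 2 windows each and Fgf12 and Fgf13 have 4, of which the first listed was used, and the others of Fgf13 ranged from 0.59 to 0.95. The start that these embryos used was not measured.

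**Figure D3:**
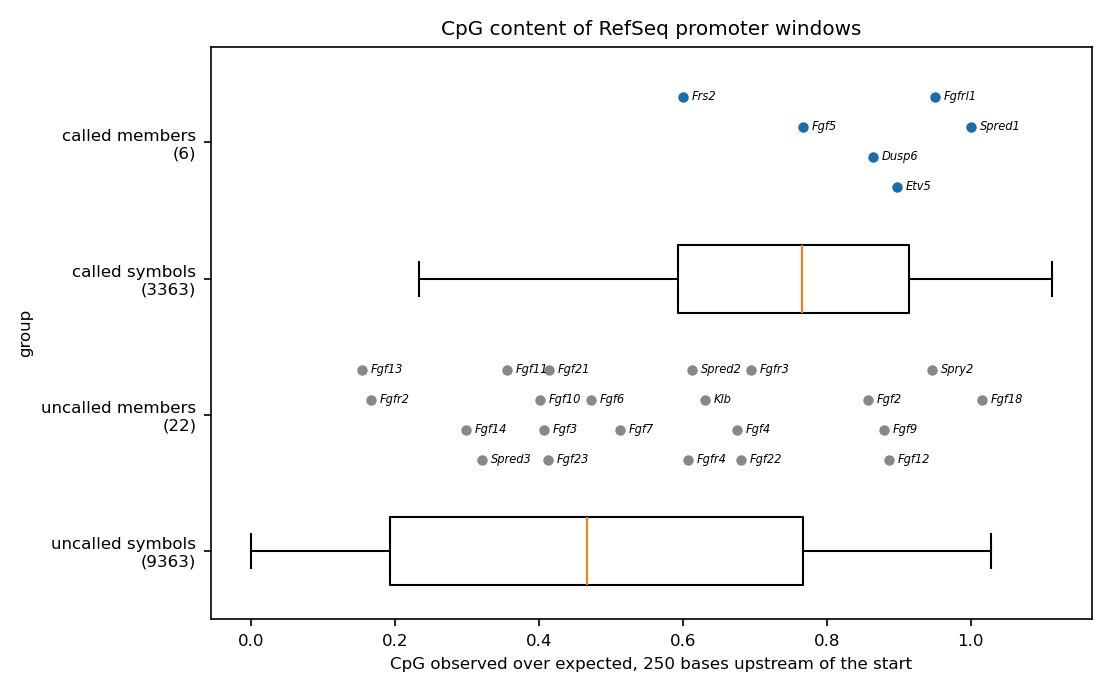
Ratio of observed to expected CG in the 250 bases before the gene start (x axis) for called and uncalled members (points, named) and for all called and uncalled symbols (boxes from the 25th to the 75th percentile with the median, whiskers to the 5th and 95th). The 6 called members lie between 0.60 and 1.00, and the uncalled members between 0.15 and 1.02.

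The arrays differed in depth of signal, and this shift was removed before the spread of the members was described. The median log2 signal of all called symbols was 8.02, 7.83 and 7.50 on replicates 1, 2 and 3. In the deposited signals replicate 3 was the lowest for 11 of 11 called members, as for 93.4% of the called symbols. After each array was centred on that median, replicate 1 was highest for 4 of the called members, replicate 2 for 2 and replicate 3 for 5. These are 36.4%, 18.2% and 45.5% of the called members, against 25.7%, 28.2% and 46.0% of all called symbols. The median SD between arrays was 0.10 for the called members and 0.13 for all called symbols (log2).

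Dusp6 varied the most among the called members, with an SD of 0.30 at the 94.8th percentile of all called symbols. Its centred signal deviated from its mean by 0.24, 0.09 and -0.33, so replicate 3 was low beyond the shared shift. The bead standard errors of Dusp6 were 0.15 to 0.20. Frs2 varied the least, with an SD of 0.042, below its bead standard errors of 0.10 to 0.15. Etv4 and Etv5 had SDs of 0.071 and 0.090, and Spred1 one of 0.10.

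Fgf15 and Frs2 were the called members whose centred signal was highest on replicate 2, by 0.15 and 0.03 above their means. Frs2 was nearly as high on replicate 3, at 0.02 above its mean, a gap below its bead standard errors of 0.10 to 0.15. Replicate 2 also held the highest centred median of the visceral endoderm markers, at 1.39 against 0.64 and 0.73. Of these 14 markers 13 were called on all arrays (92.9%, against 20.6% of all symbols). Their summed linear signal was 15279, 16322 and 7836 on replicates 1, 2 and 3. Of 16 extraembryonic ectoderm markers 6 were called (37.5%), which were Bmp4, Cdx2, Ets2, Rhox5, Tfap2c and Dlx3. Elf5, Eomes, Ascl2, Gcm1, Bmp8b, Wnt7b and Esx1 were called on no array. The sums over all 16 were 4038, 3793 and 2531, and their centred medians were -1.30, -1.16 and -0.99. Summed signals are not centred, so they carry the shift between arrays. Centred signals of all uncalled symbols also rose toward replicate 3, with median deviations of -0.16, -0.03 and 0.20. Of 7 yolk sac blood markers 1, Tal1, was called (14.3%, below the 20.6% of all symbols). Among 20 markers of the embryonic region 13 were called (65%). Their centred medians were -0.65, -0.92 and -0.73 on replicates 1, 2 and 3, and their summed signals 10730, 7806 and 6146. The share of any member's signal that came from visceral endoderm or extraembryonic ectoderm was not tested.

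**Figure D4:**
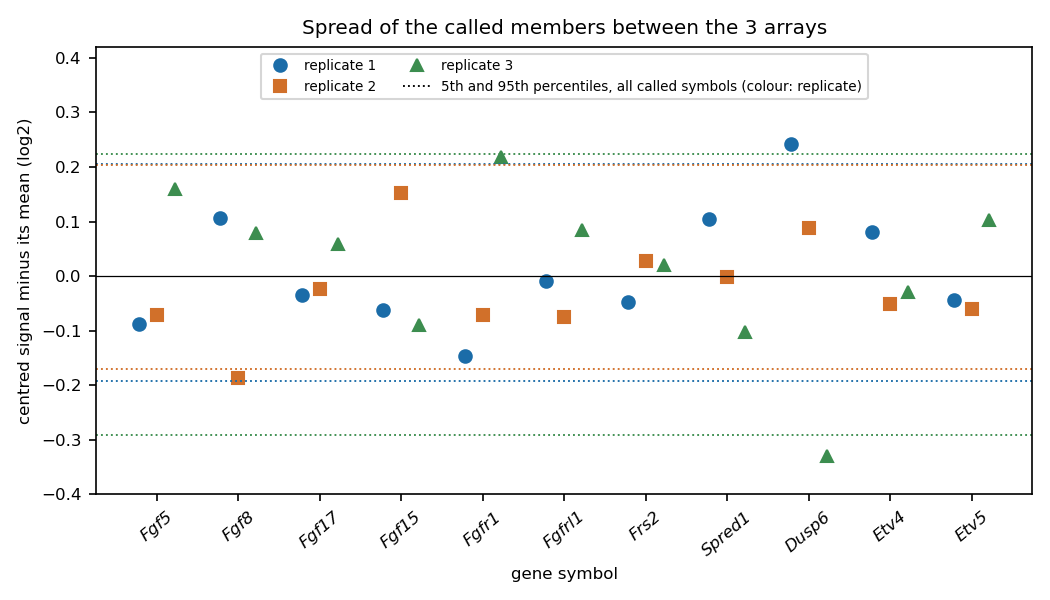
Centred log2 signal of each of the 11 called members minus its own mean (y axis), by gene (x axis) and replicate. Dotted lines mark the 5th and 95th percentiles over all called symbols for each replicate. Replicates 1 and 3 of Dusp6 and replicate 2 of Fgf8 lie outside these lines.

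Of 27 genes of the signalling core, 11 were called on all 3 arrays (40.7%, against 20.6% of all symbols). Among the Ras, Raf, MEK and ERK genes 8 of 10 were called, among the adaptors and exchange factors 1 of 7, among other effectors 1 of 5 and among negative regulators 1 of 5. The called genes included Nras, a Ras protein, at a mean log2 signal of 10.01, and Rasa1, a negative regulator of Ras, at 9.84. Ptpn11, the phosphatase that binds Frs2, missed the call at a mean of 9.39 with detection p-values of 0.0135, 0.0284 and 0.0163 over 4 inferred probes.

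Of 30 genes of heparan sulphate and the co-receptors, 10 were called (33.3%, against 20.6% of all symbols). Limma placed 15 above background (50%, against 23.8% of all symbols). Of the 30 genes 16 had several inferred probes, and limma called 36.1% of all symbols with several probes. Gpc1, a glypican core protein, had a mean log2 signal of 10.66, Ext1, an enzyme that builds the chain, 8.96, and Flrt3, a membrane protein that binds FGF receptors, 8.92. Gpc3, another glypican, reached 10.48 without a call, since its 3 inferred probes summed to 0.427, 0.718 and 0.921. Of 14 further genes that respond to ERK, 6 were called (42.9%, against 20.6%) and 5 lay above background by limma (35.7%, against 23.8%). The 6 called genes included Ccnd1, a G1 cyclin, at 10.39, Phlda1 at 8.69 and Rasl11b at 8.26. The early growth response factor Egr1 was called on 2 arrays at a mean of 6.78. Dusp5 and Fosl1 were not matched.

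The mesoderm transcription factors T, Tbx6 and Mesp1, known to depend on FGF signalling, were called on all arrays at mean log2 signals of 10.17, 7.35 and 7.03. Snai1, which drives cells to leave the epithelium, was called on 2 arrays at a mean of 6.84. Limma placed these 4 of the 4 measured genes above background, against 23.8% of all symbols, and Msgn1 was not matched. This short list was chosen with earlier results of these data known, and T, Tbx6 and Mesp1 are also among the embryonic region markers. The dependence of these genes on FGF signalling was not tested. Mesp1 passed narrowly, at 0.73 ± 0.21 above background (SE, limma adjusted p = 0.047).

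**Figure D5:**
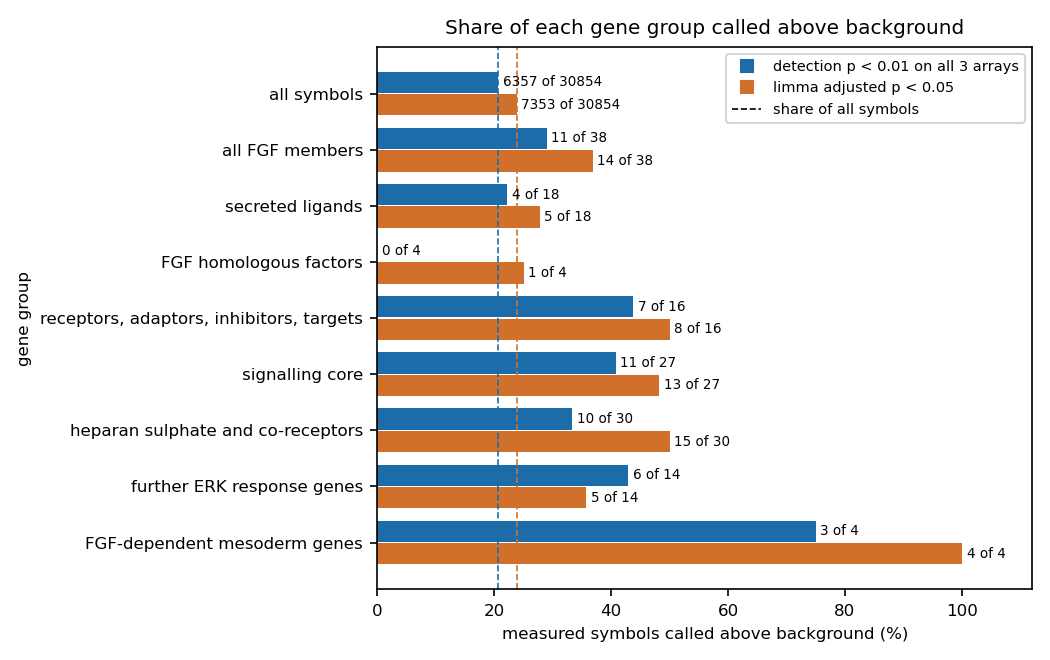
Share of the measured symbols in each group (y axis) that was called above background (x axis, percent), by detection p on all 3 arrays (blue) and by limma (orange). Dashed lines mark the shares of all symbols, 20.6% and 23.8%. The gene groups were chosen with earlier results of these data known. The secreted ligands lie near these lines at 22.2% and 27.8%, and the receptors, adaptors, inhibitors and targets at 43.8% and 50%.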

How the data were processed

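RNA from the embryonic region of EHF stage embryos was labelled and hybridized to Illumina mouse bead arrays (n = 3). The authors deposited log2 signals per gene symbol without normalization between arrays, and Partek is named in the submitters' processing notes. The number of beads, the standard error over beads on the linear intensity scale and the detection p-value were also deposited by the authors for each symbol. Groups were taken from the labels, and all columns had a sample. The genome build of the probes is not given in the sources used here.

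The number of probes was inferred as the smallest that made the bead numbers whole and the detection p-value fit a sum of values in the steps that the negative controls set. It gave 1 probe for 21998 symbols and several for 8832, with 24 not resolved. Signals were taken to the linear scale, corrected with normexp fitted on symbols with 1 probe, given an offset of 16, quantile normalized and converted back to log2. The normalized background levels were 4.68, 4.81 and 5.06, and the highest was used. The planned design took this level from any symbol, which fails for several probes, so symbols with 1 probe were used (both are given in the closing section). The level minus background went into limma 3.58.1 (one-sided, lmFit and eBayes, R 4.3.3), with Benjamini-Hochberg adjustment over 30854 symbols and a threshold of 0.05. The test takes the background level as known, and its standard errors are moderated by eBayes. It was checked on simulated data in which the background level was also taken as known, so that assumption was not tested. Bead errors were set to the log2 scale by dividing by the linear signal and the natural logarithm of 2. Detected symbols numbered 9015, 8220 and 7191 on replicates 1, 2 and 3, with a median of 44, 43.5 and 43 beads per symbol.

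Values on each array were given for members with a detection p below 0.01 on at least 1 array and for the 3 others with the lowest mean detection p, and for Fgf4 and Spry2, chosen after their values were seen. Of each pathway list the 3 called symbols with the highest signal and the highest uncalled one were named, a ranking used only to choose names, except 1 that is not reported here. The members and the lists were chosen with earlier results of these data known. Hras was matched as Hras1 and Tfap2c as Tcfap2c. Tables were handled with Python 3.11.15 and pandas 2.3.3.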

Additional observations from a re-analysis of the deposited data

How the results depend on the processing

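The 11 members called by detection p were 11 to 13 when 1 replicate was left out, and the 14 called by limma were 12 to 14. With a call on at least 1 array the members numbered 18. Limma on symbols with 1 inferred probe only called 8 of the 24 such members, the same 8 as in the main test. The members with several probes were not in that run. With the background level taken from all symbols, an alternative chosen after seeing the data, limma called 19, adding Fgfr3, Klb, Spred2, Spry3 and Spry4. Of the pathway lists, the signalling core fell to 5 called genes at a detection p below 0.001. The heparan sulphate list rose to 16 with 2 arrays, 19 with 1 array and 17 by signals above each array's own background level. That signal rule was also chosen after seeing the data. The further ERK response genes rose to 11 with 1 array. The cause of these moves was not tested. Without centring, the median SD of the called members was 0.23, since the shift between arrays enters it. Fgf5 lost its limma call without replicate 1, and Fgfr1 lost it with an offset of 50, without replicate 1 and without replicate 2. The levels of the 14 members called by limma stayed above background under every alternative, between 0.11 and 1.89 with no background correction, where all 14 moved by over 1.5 times, and between 0.88 and 3.81 with the background level from all symbols. Fgfr3, Klb, Spred2 and Spry3 turned from below to above background with the mean of the 3 background levels, with each array's own level, in the deposited signals, with median scaling and without replicate 3. Fgfr3 and Spry3 did so without replicate 2, and these 4, Fgf3 and Spry4 with the level from all symbols. No paired analysis was possible because the arrays form only 1 group. The number of arrays limits the precision, and signals within about 0.3 of background on the log2 scale decide Fgf5, Fgf10 and Fgfr1.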
